A study of Rattus norvegicus with 8 samples.

Results

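The genes described here encode ion channels and neurotransmitter receptors of the dorsal root ganglion (DRG), together with 3 genes whose symbols share the same letters. They are 43 of the 32623 Ensembl identifiers in the deposited count table. A gene was included when its identifier had at least 10 counts in at least 2 libraries and its symbol began with the letters of a channel or receptor family. These were Kcn, Cacn, Hcn, P2r, Gabr, Gria, Grik, Grin, Grm, Glr, Chrm, Chrn, Htr, Opr and Adr. Scn, Trpa, Trpc, Trpm, Trpv, Ano and Npy counted only when a digit followed. Symbols were available only for genes in the study's own lists of differential genes. Of 57 symbols that matched and passed the filter on counts, 14 were set aside by the rule. The lowest count of a member in any library was 37.

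RNA was sequenced from the ipsilateral L4-L6 DRGs of adult, gonadally intact Sprague-Dawley rats, with 1 rat per library and 2 rats in each of 4 groups. CCI males and CCI females received a chronic constriction injury (CCI), in which the sciatic nerve is loosely tied, and their DRGs were taken 14 days later. Naïve males and naïve females had no surgery, so incision and anaesthesia also separate CCI from naïve rats. The ages of the rats were not given in the sources used here, and the ganglia of 1 rat were pooled whole, with neurons, glia, blood and vessels together.

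The cell bodies of sensory neurons lie in the DRG, and their channels set how readily a stimulus becomes a train of impulses. Sodium and calcium channels depolarize the membrane, most potassium channels repolarize it, and HCN channels carry an inward current at rest that favours repeated firing. Receptors for GABA, glycine, acetylcholine, ATP and glutamate are channels opened by their transmitter, and several act on the central terminals of sensory neurons in the spinal cord. TRP channels open to heat, cold, irritants or signals from inside the cell, and several are also found in glia, immune cells or skin.

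The members came from 3 kinds of list. In 36 cases the study had listed the gene because its change after CCI differed between the sexes, in 11 because it differed between naïve females and naïve males, and 5 genes were in both kinds. Trpa1 came from a short list of genes higher in CCI males, which was ranked by false discovery rate. The 6 genes listed only for the naïve sexes were Chrne and Trpc6, higher in females, and P2rx7, Grik5, Trpm2 and Cacna1g, higher in males. Values of the comparisons that chose a gene are therefore given below as a description, and any count of genes that passed there only repeats the choice. Tests are given for the change after CCI averaged over both sexes (42 genes, all but Trpa1), for CCI females against CCI males (the 6 genes of the naïve lists only) and for CCI in females (Trpa1). The average over the sexes shares its libraries with the comparisons that chose the genes. Its error would be uncorrelated with theirs if all groups varied equally, and they did not. The SD of the log2 difference between the 2 rats of a group, over all genes tested, was wider in males (0.71 without and 0.63 with injury) than in females (0.42 and 0.41). Over the 43 genes it was 0.19 and 0.13 in males and 0.18 and 0.29 in females. The test of the average is therefore not independent of the choice of genes.

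Of the 43 genes, 28 have a promoter window in the RefSeq annotation of the rat assembly GRCr8, which covers 250 bases before and 50 bases after an annotated transcript start. They include 5 of the 11 genes that passed the test of the average change after CCI, and the windows of 4 of these are shown because they hold at least 1 of the motifs searched. The motifs, on either strand, were the cAMP response element TGACGTCA, the AP-1 site TGANTCA, the GC box GGGCGG and the CCAAT box. Capitals mark a match.
Gabrg1 (GRCr8 chr14:37750042-37750341, plus strand): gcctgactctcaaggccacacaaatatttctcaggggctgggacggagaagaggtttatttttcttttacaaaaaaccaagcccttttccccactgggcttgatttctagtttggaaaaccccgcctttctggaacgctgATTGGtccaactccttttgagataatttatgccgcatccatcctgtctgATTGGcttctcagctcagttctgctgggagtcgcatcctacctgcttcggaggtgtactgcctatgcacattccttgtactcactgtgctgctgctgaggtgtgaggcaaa
P2rx3 (GRCr8 chr3:90529260-90529559, minus strand): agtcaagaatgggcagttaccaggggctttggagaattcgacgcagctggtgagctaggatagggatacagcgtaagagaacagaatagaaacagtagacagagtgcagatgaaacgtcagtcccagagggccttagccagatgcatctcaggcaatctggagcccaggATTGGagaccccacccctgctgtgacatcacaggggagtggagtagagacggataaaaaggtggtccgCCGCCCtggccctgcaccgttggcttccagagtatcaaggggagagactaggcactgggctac
P2rx7 (GRCr8 chr12:39594873-39595172, minus strand): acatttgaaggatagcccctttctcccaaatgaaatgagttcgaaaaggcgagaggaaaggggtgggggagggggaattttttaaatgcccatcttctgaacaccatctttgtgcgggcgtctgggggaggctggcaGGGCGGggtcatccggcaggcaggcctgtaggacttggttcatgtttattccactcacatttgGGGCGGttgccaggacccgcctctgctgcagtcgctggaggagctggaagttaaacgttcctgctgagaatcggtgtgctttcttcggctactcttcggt
Trpv3 (GRCr8 chr10:58381804-58382103, plus strand): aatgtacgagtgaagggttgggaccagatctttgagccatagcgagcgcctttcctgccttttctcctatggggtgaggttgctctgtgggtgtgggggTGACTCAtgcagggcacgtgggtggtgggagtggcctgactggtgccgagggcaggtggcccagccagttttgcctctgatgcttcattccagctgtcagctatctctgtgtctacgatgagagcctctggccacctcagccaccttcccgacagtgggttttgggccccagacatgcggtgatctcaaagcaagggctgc

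The window of Gabrg1 holds a CCAAT box on the reverse strand at positions -110 and -61 from the annotated start. That of P2rx3 holds a CCAAT box at -81 and a GC box at -13, both on the reverse strand, and a second annotated start of P2rx3 holds none of the 4 motifs. P2rx7 holds a GC box at -113 and at -50, and Trpv3 an AP-1 site at -151. The window of Trpc5 holds none. In the 34 windows of the 28 genes, a GC box was found in 20 (58.8%, against 33.1% of all 33469 windows), a CCAAT box in 7 (20.6%, against 37.5%), an AP-1 site in 2, those of Glrx and Trpv3 (5.88%, against 7.33%), and a cAMP response element in 0 (against 1.83%). These are matches of letters, and binding was not measured.

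All 43 genes were among the 16988 genes tested, and total counts ranged from 39489103 to 60818457 per library. Expression is given as CPM, counts scaled to a common library size but not for transcript length, so levels are compared within a gene only. The 2 rats of a group were close for most members. On the log2 scale the median difference between the rats of a group was 0.09 (CCI males) to 0.12 (CCI females). The widest gap was that of Trpc6 in CCI females, 1.19 on the log2 scale. Marker genes moved with CCI as well. Of 12 neuronal markers 8 had a symbol, and their summed level in males was 17908 to 20126 CPM without injury and 29027 to 29852 CPM after CCI. In females these sums were 21498 to 22592 CPM and 22793 to 27269 CPM. Of 11 markers of Schwann cells and satellite glia 7 had a symbol, and their sums were 10988 to 13378 CPM in naïve and 3365 to 3518 CPM in CCI males, and 7747 to 9501 CPM in naïve and 4322 to 5582 CPM in CCI females. In males all 8 neuronal markers had higher and all 7 glial markers lower levels after CCI. Markers too had a symbol only through the study's lists of differential genes, several through its lists of genes changed by CCI. The directions of these markers and of the blood genes therefore partly repeat the way they came to have a symbol. The blood genes (6 of 6 with a symbol) were all called lower in the average, with a median log2FC of -2.41. Their summed level was 1344 to 2019 CPM in naïve and 167 to 211 CPM in CCI females, and 129 to 1379 CPM in naïve and 220 to 251 CPM in CCI males. The 2 naïve males thus lay far apart, on either side of the CCI males. Hba1, for example, was at 45.2 CPM in naïve male 1 and 538 CPM in naïve male 2. The Y-linked genes with a symbol (2 of 5) separated the sexes as labelled. Most members are known from neurons, and the part of these shifts in the values below was not tested. In whole ganglia, fewer cells of a type and less RNA per cell cannot be told apart.

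**Figure D1:**
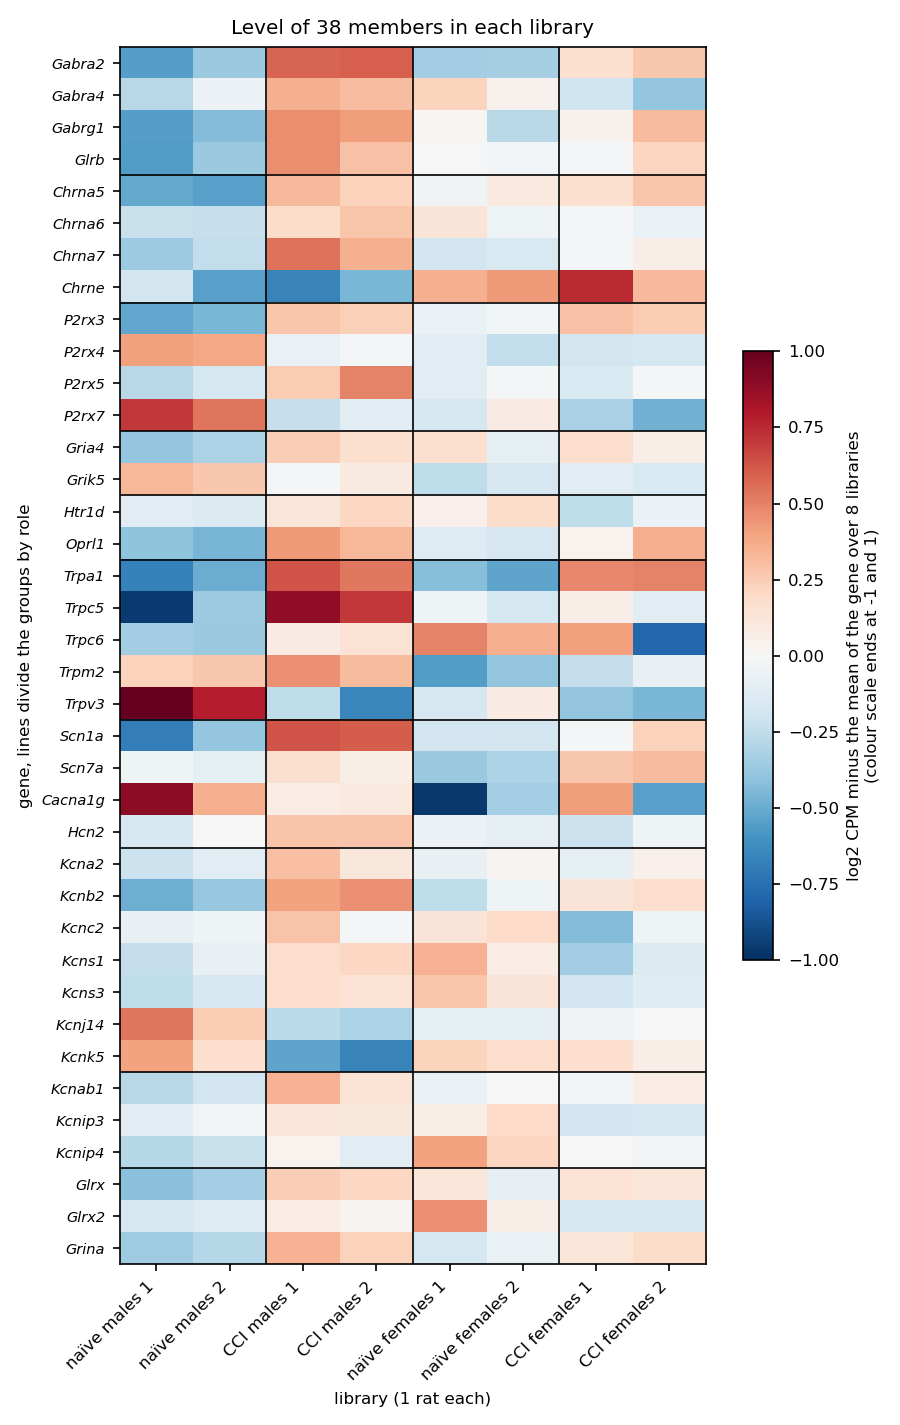
Level of 38 of the genes (rows, grouped by role) in each of the 8 libraries (columns), as log2 CPM minus the mean of the gene over all libraries, with the colour scale ending at -1 and 1. Most genes of the first groups are lowest in the naïve males and highest in the CCI males, the pattern by which most were listed, while P2rx7, Trpv3, P2rx4 and Kcnj14 are highest in the naïve males.

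The rule itself shaped the order of the 4 groups. The highest mean level was that of CCI males in 26 genes, naïve males in 7, naïve females in 7 and CCI females in 3. The lowest was that of naïve males in 26, CCI females in 9, CCI males in 4 and naïve females in 4.

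Averaged over both sexes, 9 of the 42 genes tested were called higher after CCI and 2 lower. The test was edgeR's quasi-likelihood test on the counts. A change was called at an absolute log2 fold change (log2FC) above 0.5 with an adjusted p below 0.05 (Benjamini-Hochberg over all genes tested). Among them, Gabra2 and Gabrg1 (GABA-A receptor subunits), P2rx3 (the ATP-gated channel of nociceptors), Oprl1 (the nociceptin receptor), Trpc5, Scn1a and Kcnb2 were higher, and P2rx7 and Trpv3 were lower. Of those named as higher, only Gabra2 was also called in females alone. The others had a log2FC of 0.75 (P2rx3) to 1.43 (Trpc5) in males and 0.08 (Trpc5) to 0.35 (Oprl1) in females. Together, 11 of 42 genes (26.2%) were called, beside 15.4% of all genes tested. Since the 42 genes came from the study's lists of differential genes, this and the following shares are given as a description. Upward calls made up 6.08% of all genes and downward calls 9.29%. The median log2FC of the 42 genes was 0.25 beside -0.018 for all genes, and 29 of them had a positive value, as did 48% of all genes. In 12 genes all 4 CCI libraries lay above all 4 naïve libraries (16.9% of all genes tested) and in 1 gene, Trpv3, they lay below (13%). By the adjusted p alone, 23 genes were higher and 5 lower, beside 41% of all genes in either direction and 21.3% upward. Leaving out any 1 library gave 10 to 15 called genes. With 2 rats a group, an exact two-sided test between 2 groups reaches at best p = 0.333 for 1 gene, and the adjusted p-values therefore depend on edgeR's sharing of spread between genes.

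**Figure D2:**
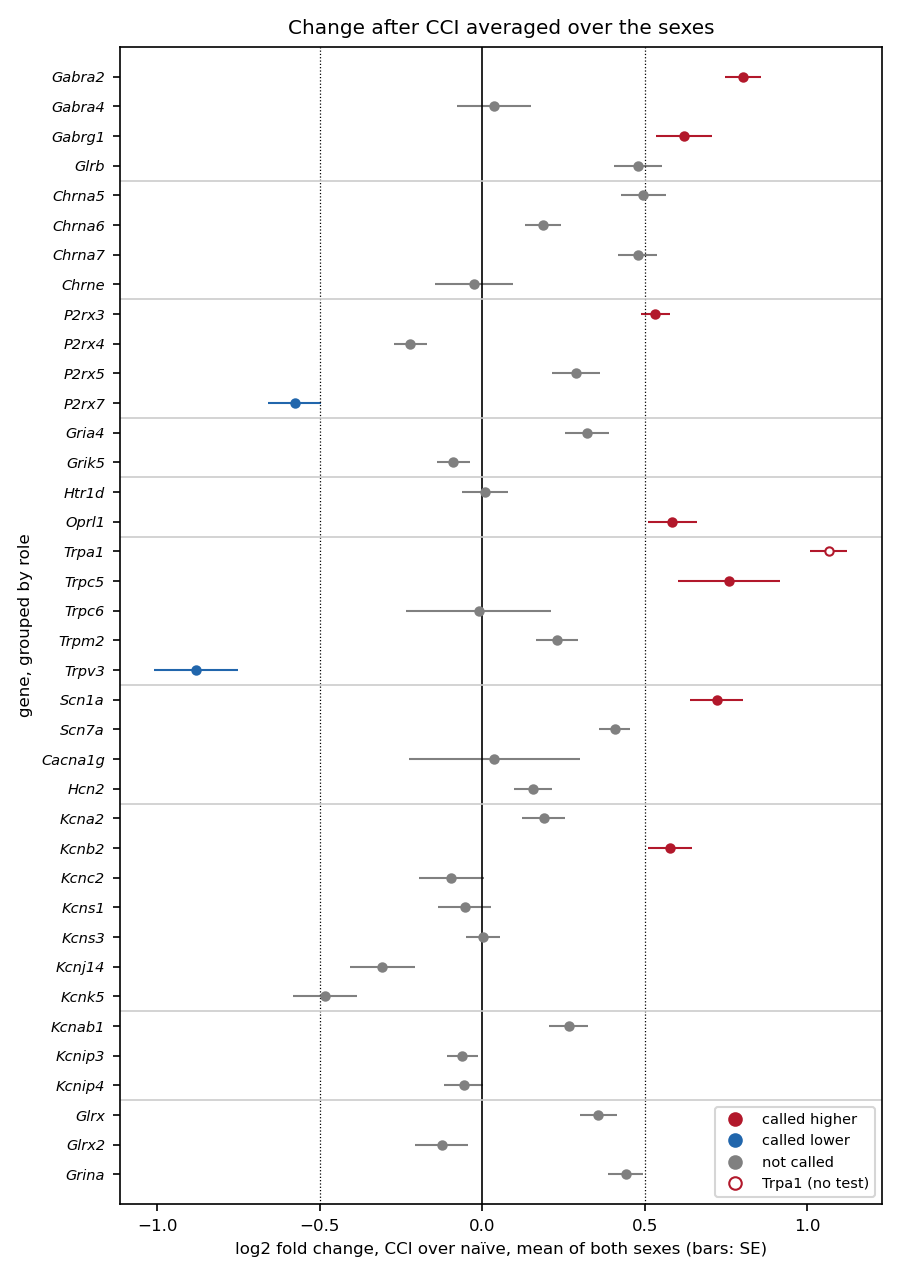
Change after CCI averaged over the sexes for 38 of the genes (vertical axis, grouped by role), as log2 fold change with its SE, from 2 rats in each of 4 groups. Red points are 7 genes called higher, blue points 2 called lower, grey points were not called, the open symbol is Trpa1, which was not tested here, and dotted lines mark a log2FC of 0.5 in either direction.

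GABA-A receptors are chloride channels built from several subunits, and the glycine receptor subunit Glrb is a relative that anchors its receptor at synapses. All 7 genes of this group had a positive average change (median log2FC 0.48). Gabra2, an alpha subunit, was expressed at 84.6 and 95.7 CPM in naïve males, 186 and 187 CPM in CCI males, 97.4 and 98.4 CPM in naïve females and 138 and 149.8 CPM in CCI females. Every CCI library lay above every naïve library, with the CCI males highest. Its average log2FC was 0.80 (SE 0.0552, adjusted p = 0.000145), a 1.75-fold increase.

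Gabrg1 encodes a gamma subunit. It was expressed at 41.9 and 45.4 CPM in naïve males, 85.0 and 82.2 CPM in CCI males, 62.3 and 50.8 CPM in naïve females and 63.3 and 76.5 CPM in CCI females. The CCI males stood well above the naïve males, whereas 1 CCI female was only just above the higher naïve female. Its average log2FC was 0.62 (SE 0.0862, adjusted p = 0.0013), from 0.94 in males and 0.30 in females. This is the gene with a reverse CCAAT box at 2 positions of its promoter window.

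Glrb (log2FC 0.48) passed the adjusted p but not the fold threshold, and its naïve and CCI libraries overlapped. Gabra4 was not called either and had an average log2FC of 0.04 with a 95% confidence interval from -0.23 to 0.30.

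Nicotinic receptors are cation channels opened by acetylcholine. Of the 4 subunits, 0 were called in the average. Chrna5 (log2FC 0.496, adjusted p = 0.00133) and Chrna7 (log2FC 0.48, adjusted p = 0.000873) stayed just under the fold threshold by edgeR's test, although all CCI libraries lay above all naïve libraries for both. Chrna6 had an average log2FC of 0.19. Chrne, the epsilon subunit of the adult muscle receptor, had -0.03 (95% confidence interval -0.30 to 0.25) and is described with the naïve lists below.

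P2X receptors are cation channels opened by extracellular ATP. P2rx3 and P2rx7 were called in opposite directions. P2rx3, a subunit of the receptor by which nociceptors sense ATP, was expressed at 358 and 375 CPM in naïve males, 622 and 605 CPM in CCI males, 491 and 505 CPM in naïve females and 631 and 614 CPM in CCI females. The 4 CCI libraries lay together within 605 to 631 CPM, and the naïve females lay between them and the naïve males. The average log2FC was 0.53 (SE 0.045, adjusted p = 0.000284), from 0.75 in males and 0.31 in females.

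P2rx7, known from macrophages, microglia and satellite glia, was expressed at 29.4 and 26.1 CPM in naïve males, 15.4 and 16.7 CPM in CCI males, 16.0 and 19.1 CPM in naïve females and 14.4 and 13.0 CPM in CCI females. The naïve males stood apart above all other libraries, and the other 6 lay within 13.0 to 19.1 CPM. The average log2FC was -0.58 (SE 0.0814), from -0.79 in males and -0.37 in females, and in females alone it was not called (adjusted p = 0.107 by edgeR's test). The sums of the glial markers given above were also highest in the naïve males and lower in the CCI libraries of both sexes. Cd74, the only leukocyte marker with a symbol, was at 133 and 160 CPM in naïve males and 228 CPM in both naïve females. Its average log2FC was 0.31. These markers came from the study's lists as well, and their part in the level of P2rx7 was not tested. The study listed P2rx7 for its high level in naïve males. These libraries are also part of the average, which is given here as a description. P2rx4, with a log2FC of -0.22, and P2rx5, with 0.29, were not called.

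Among glutamate receptors, Gria4, an AMPA receptor subunit, had an average log2FC of 0.32 (adjusted p = 0.00767), and Grik5, a kainate receptor subunit, had -0.09 (95% confidence interval -0.21 to 0.03). Neither was called by edgeR's test.

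Of the G protein-coupled receptors, Htr1d, a serotonin receptor on trigeminal and spinal afferents, had an average log2FC of 0.01 (95% confidence interval -0.16 to 0.18). Oprl1, the receptor of nociceptin and a relative of the opioid receptors, was expressed at 41.4 and 39.7 CPM in naïve males, 73.5 and 69.0 CPM in CCI males, 50.1 and 48.6 CPM in naïve females and 56.1 and 70.3 CPM in CCI females. The CCI libraries lay above the naïve libraries in both sexes, with a wide gap between the 2 CCI females. The average log2FC was 0.58 (SE 0.075, adjusted p = 0.000957), from 0.82 in males and 0.35 in females. Without CCI female 2 the average was 0.499, just under the fold threshold.

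**Figure D3:**
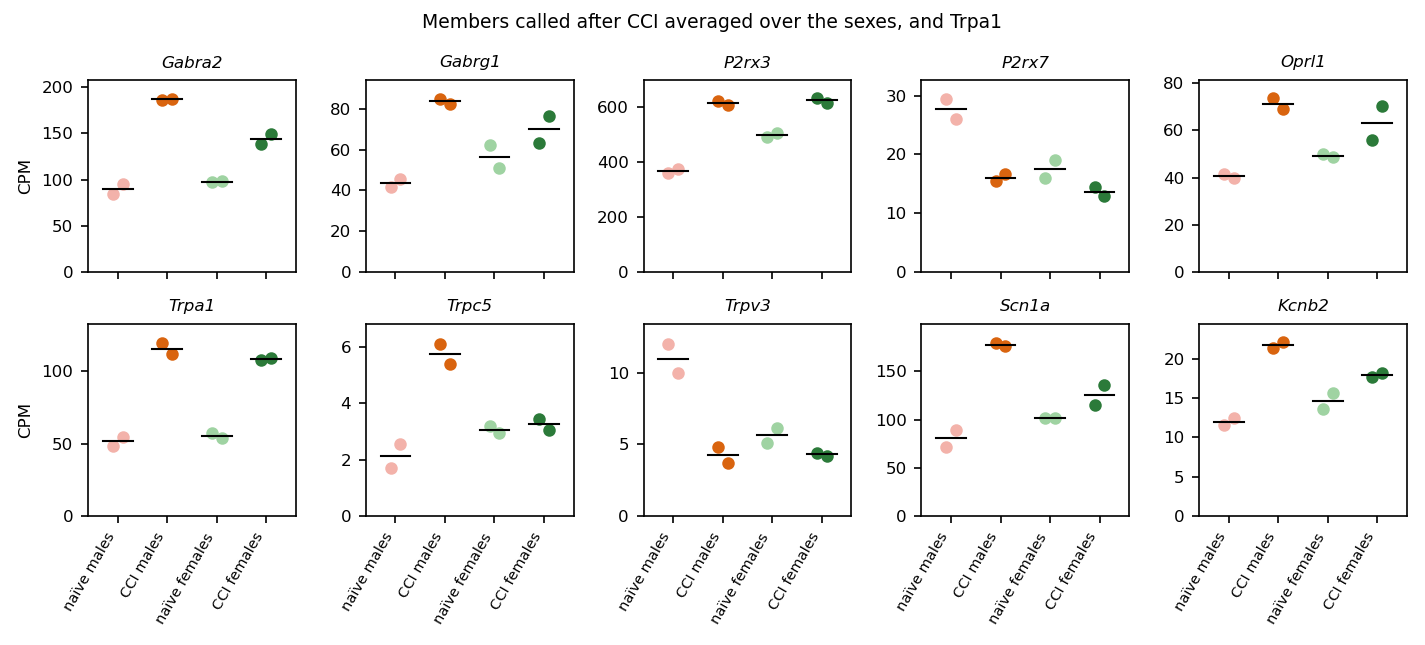
CPM of 9 genes called in the average and of Trpa1, with 1 panel per gene, 1 point per rat (2 per group) and a line at the group mean, on axes that start at 0. In Gabra2, Gabrg1, P2rx3, Oprl1, Scn1a, Kcnb2 and Trpa1 all CCI points lie above all naïve points, and in Trpv3 they lie below. In P2rx7 the naïve males stand apart, and in Trpc5 the CCI males lie above and the naïve males below all females.

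TRP channels are cation channels with diverse triggers. Trpa1 responds to irritant chemicals and is a known nociceptor channel. It was expressed at 48.4 and 54.7 CPM in naïve males, 119.6 and 112 CPM in CCI males, 57.5 and 53.5 CPM in naïve females and 108 and 109 CPM in CCI females. The CCI libraries of both sexes lay close together at about the same distance above the naïve libraries. Trpa1 was chosen for its rise in males (log2FC 1.17, a description). In females, which had no part in the choice, it rose 1.94-fold (log2FC 0.96, SE 0.0798, adjusted p = 0.00103 by edgeR's quasi-likelihood test), and 5.69% of all genes tested were called there. With any 1 female library left out its log2FC was at least 0.91, with an adjusted p of at most 0.0462.

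Trpc5, a channel sensitive to cold and to lipid signals, was expressed at 1.70 and 2.57 CPM in naïve males, 6.12 and 5.41 CPM in CCI males, 3.21 and 2.93 CPM in naïve females and 3.46 and 3.07 CPM in CCI females. The CCI males lay above and the naïve males below all female libraries, and the naïve and CCI females overlapped. The average log2FC of 0.76 (SE 0.156, adjusted p = 0.0066) was thus the mean of 1.43 in males and 0.08 in females. In a model with 1 common change for both sexes the adjusted p was 0.0683 and Trpc5 was not called.

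Trpv3, a warmth-sensitive channel best known from keratinocytes, was expressed at 12.01 and 9.94 CPM in naïve males, 4.81 and 3.65 CPM in CCI males, 5.12 and 6.10 CPM in naïve females and 4.37 and 4.20 CPM in CCI females. The naïve males were highest, and the CCI libraries lay below the naïve libraries in both sexes (average log2FC -0.88, SE 0.129). The change was -1.37 in males and -0.40 in females, where it was not called (adjusted p = 0.177 by edgeR's test). The study had listed Trpv3 too for its high level in naïve males, and its average is likewise a description. Naïve males also had the highest sums of glial markers, and a part of glia in the level of Trpv3 was not tested. Trpm2, with a log2FC of 0.23, and Trpc6, with -0.01 (95% confidence interval -0.53 to 0.51), were not called.

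In the group of sodium, calcium and HCN channels, all 5 genes had a positive average change (median log2FC 0.41). Scn1a encodes the sodium channel Nav1.1, known from myelinated sensory neurons. It was expressed at 71.9 and 88.9 CPM in naïve males, 179.5 and 176 CPM in CCI males, 102 and 102 CPM in naïve females and 115 and 136 CPM in CCI females. All CCI libraries lay above all naïve libraries, and the CCI males were highest. Its average log2FC was 0.72 (SE 0.0815, adjusted p = 0.000628), from 1.15 in males and 0.29 in females.

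Hcn2, a subunit of the channels that carry the pacemaker current, had an average log2FC of 0.16 (adjusted p = 0.0674). Scn7a, which encodes a sodium channel homologue of glia and neurons that senses sodium concentration, had 0.41 (adjusted p = 0.000744), under the fold threshold, with all CCI libraries above all naïve libraries. Cacna1g, the T-type calcium channel Cav3.1, had 0.04 (95% confidence interval -0.57 to 0.65).

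Potassium channels were the group with the most members. Of 8 pore subunits, 4 had a positive and 4 a negative average change (median log2FC -0.03), and 1 was called. Kcnb2 encodes Kv2.2, a delayed rectifier. It was expressed at 11.5 and 12.4 CPM in naïve males, 21.3 and 22.1 CPM in CCI males, 13.6 and 15.7 CPM in naïve females and 17.6 and 18.2 CPM in CCI females. The CCI libraries lay above the naïve libraries in both sexes. Its average log2FC was 0.58 (SE 0.0678, adjusted p = 0.000704), from 0.86 in males and 0.29 in females.

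Kcna2, a channel placed beside the nodes of myelinated axons, had a log2FC of 0.19 (adjusted p = 0.0522). At the other end were the two-pore channel subunit Kcnk5, with -0.48 (adjusted p = 0.00641), and the inward rectifier Kcnj14, with -0.31 (adjusted p = 0.0404). Kcnc2, Kcns1 and Kcns3 lay between -0.10 and 0.00. The silent subunits Kcns1 and Kcns3 form no channel alone and modify Kv2 channels. None of these 6 passed both thresholds of edgeR's test. Of the 3 auxiliary subunits, Kcnab1, a beta subunit of Kv1 channels, had 0.27 and passed the adjusted p only (0.0106). Kcnip3 and Kcnip4, calcium-binding proteins that attach to Kv4 channels, both had -0.06.

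Among the genes whose symbols match without encoding a channel or receptor were the glutaredoxins Glrx (log2FC 0.36) and Glrx2 (-0.13), which reduce protein disulfides. Grina, a membrane protein linked to calcium and cell survival, had 0.44. None of the 3 was called. Of the 14 symbols set aside by the rule, 7 were called higher in the same average and all 14 had a positive change, beside 6.08% and 48% of all genes. Those genes too came from the study's lists.

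CCI females were compared with CCI males for the 6 genes listed only for the naïve sexes, since the naïve lists did not use the CCI libraries. That these genes were absent from the list for the interaction did depend on the CCI libraries and favours naïve differences that persist, so the test is not fully independent of the choice. Chrne was called, beside 1.06% of all genes tested, and nothing is read from that share. It was expressed at 13.3 and 10.4 CPM in naïve males, 9.47 and 11.0 CPM in CCI males, 19.3 and 20.3 CPM in naïve females and 25.3 and 18.9 CPM in CCI females. The CCI females lay above the CCI males, and the same order in naïve rats is why the gene was listed. In CCI rats it was 2.16-fold higher in females (log2FC 1.11, SE 0.162, adjusted p = 0.046 by edgeR's quasi-likelihood test). The call was lost without CCI female 1 (log2FC 0.89, adjusted p = 0.249) and without CCI female 2 (log2FC 1.31, adjusted p = 0.0911). It was also lost with the replicate number as a block (log2FC 1.10, adjusted p = 0.109). Because Chrne belongs to a muscle receptor, the muscle markers were read beside it (5 of 7 with a symbol). Their summed level was highest in CCI males (90.5 to 97.1 CPM), where the mean of Chrne was lowest, and lowest in CCI females (25.0 to 27.0 CPM). The study reports all of these markers as raised after CCI in males, and several also as lowered in females. The order of their sums after CCI therefore partly repeats the way they came to have a symbol. The part of muscle tissue in the level of Chrne was not tested.

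Trpm2, a channel opened by oxidative signals and known from immune cells and neurons, was expressed at 37.2 and 38.1 CPM in naïve males, 43.4 and 39.5 CPM in CCI males, 21.5 and 24.0 CPM in naïve females and 26.8 and 30.0 CPM in CCI females. The CCI males lay above the CCI females, and the same order in naïve rats is why Trpm2 was listed. The difference in CCI rats had a log2FC of -0.54 (SE 0.0882, 95% confidence interval -0.75 to -0.32) and an adjusted p of 0.0571, and so was not called.

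The remaining 4 genes did not pass the test between CCI females and CCI males. P2rx7 had a log2FC of -0.23 (95% confidence interval -0.47 to 0.02, adjusted p = 0.302). Grik5 was expressed at 46.8 and 44.9 CPM in naïve males, 36.8 and 39.7 CPM in CCI males, 31.1 and 33.0 CPM in naïve females and 34.6 and 33.5 CPM in CCI females. The CCI males were again above the CCI females, with a log2FC of -0.16 (95% confidence interval -0.35 to 0.02, adjusted p = 0.329). Grik5 too was listed for this order in naïve rats.

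Trpc6, a channel opened by diacylglycerol and found in vessels as well as neurons, was expressed at 6.75 and 6.64 CPM in naïve males, 9.11 and 9.51 CPM in CCI males, 12.1 and 11.1 CPM in naïve females and 11.4 and 4.99 CPM in CCI females. The 2 CCI females lay on either side of all other CCI libraries, so the sexes overlapped after CCI. The log2FC of -0.18 had a 95% confidence interval from -1.05 to 0.69 (adjusted p = 0.836), and without CCI female 2 it was 0.30.

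Cacna1g was expressed at 2.83 and 1.96 CPM in naïve males, 1.61 and 1.63 CPM in CCI males, 0.782 and 1.21 CPM in naïve females and 2.04 and 1.05 CPM in CCI females. The CCI females lay on either side of the CCI males, and the log2FC of -0.06 had a 95% confidence interval from -0.92 to 0.79 (adjusted p = 0.947). Without CCI female 2 it was 0.34. With 37 counts in its lowest library this is the member with the fewest reads.

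**Figure D4:**
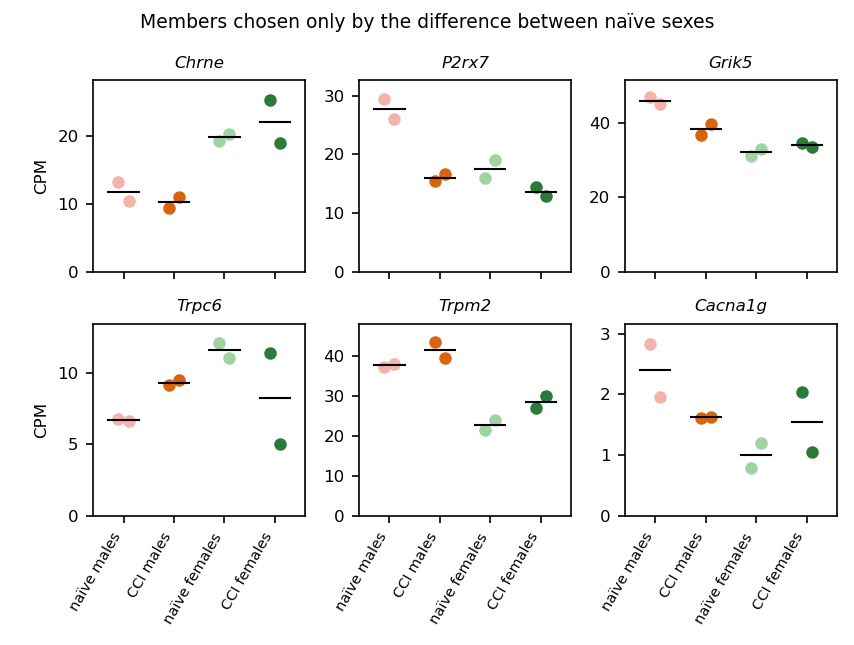
CPM of the 6 genes listed only for a difference between naïve sexes, with 1 panel per gene, 1 point per rat (2 per group) and a line at the group mean, on axes that start at 0. In Chrne both sexes keep apart after CCI with females higher, in Trpm2 and Grik5 with males higher, and in Trpc6 and Cacna1g the 2 CCI females lie on either side of the CCI males.

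The change in each sex is given as a description for the other genes, because it entered the comparison by which most of them were listed. In males 24 of the 43 genes passed both thresholds, 20 higher and 4 lower, beside 21.6% of all genes tested (9.05% higher and 12.5% lower). The 4 lower were P2rx7, Trpv3, Kcnj14 and Kcnk5. In females 4 passed, all higher (3.69% of all genes), among them Trpa1, Gabra2 and Scn7a. Without CCI male 1, 0 members were called in males, and 0 of all genes. With the replicate number as a block, Gabra4 and Cacna1g were called in males as well, and 4478 genes in place of 3663.

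Within the receptor groups, the change in males had a median log2FC of 0.85 over the 7 GABA-A and glycine receptor genes and 0.61 over the 4 nicotinic genes. In females the medians were 0.10 and 0.16. For the 8 pore subunits of potassium channels the medians were 0.36 in males and -0.05 in females, and for the 3 auxiliary subunits 0.22 and -0.32. Kcns1 was at -0.47 in females and 0.35 in males, and Kcns3 at -0.37 and 0.37. Scn7a had the reverse order, with 0.62 in females and 0.19 in males. The comparisons of males and females with their naïve groups enter the interaction directly, so these pairs of values add nothing to it.

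**Figure D5:**
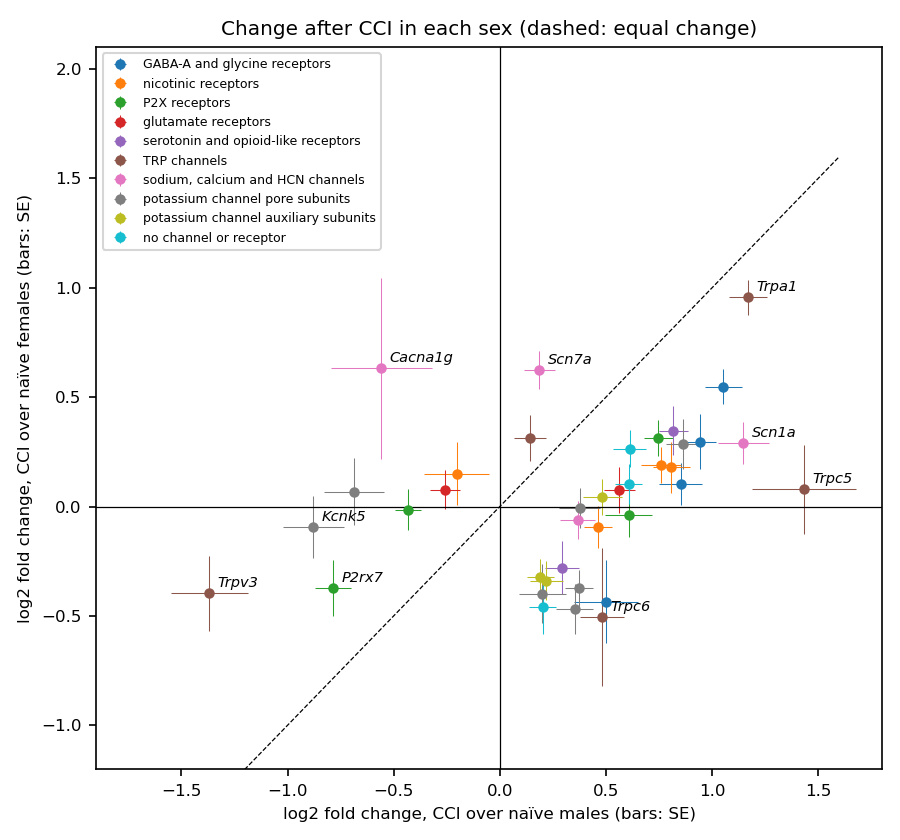
Log2 fold change after CCI in males (horizontal axis) and in females (vertical axis) for 38 of the genes, coloured by role, with SE bars from 2 rats per group, and a dashed line where both changes are equal. Most genes lie below the dashed line on the right, and Trpa1 lies near the line at 1.17 and 0.96. Above the line are 10 genes, among them Scn7a, Cacna1g, Trpv3 and Kcnk5.

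The interaction is the change in females minus that in males. Over the 43 genes it was negative in 33 and positive in 10, with a median of -0.49, and it is the value on which 36 of them were listed. The lowest value was that of Trpc5 (-1.34, SE 0.311) and the highest that of Cacna1g (1.20, SE 0.529), both genes of low level. By edgeR's test 3 genes had an adjusted p under 0.05 for the interaction, beside 1.59% of all genes tested. Kcns3 was among them. For the difference between naïve females and naïve males 0 members passed with edgeR (0.0706% of all genes tested). There 27 members had an unadjusted p under 0.05, beside 25.6% of all genes, and DESeq2 called 10, beside 5.86%.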

How the data were processed

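The deposited table holds raw counts, which the authors obtained by counting reads per Ensembl gene with featureCounts after alignment to rn6 with HISAT2 and removal of ribosomal reads (base calling with CASAVA 1.8.2, per the submitters' processing notes). The libraries were strand-specific, poly(A)-selected and paired-end, and the strand setting of the counting is not given in the sources used here, so antisense overlap cannot be told apart. The paper mentions 2 sequencing batches without naming the batch of each library.

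Counts were analysed in R 4.3.3 with edgeR 4.0.16 (TMM, filterByExpr with a minimum count of 10, quasi-likelihood F test, 1 mean per group). Average and interaction were fitted on all 8 libraries, other comparisons on their own 4. P-values were adjusted over all 16988 genes tested (Benjamini-Hochberg). The SE is the log2FC divided by the square root of F. Confidence intervals use its t quantile, are not adjusted for the number of genes, and cover the spread between rats. The average, CCI in females, and CCI females against CCI males were run on simulated data first. The change in males, the interaction and the difference between naïve sexes were not.

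The members, lists and tests were chosen with earlier results of these data known. Values in every library are given for genes called in the average, genes from the naïve lists only, Trpa1 and the lowest and highest interaction, and other members by value or range. Alternatives were DESeq2 1.42.0, other normalizations, filters and designs, limma 3.58.1 (voom with library weights), a replicate block and leaving out each library. The version 4 fit of edgeR was added after seeing the data. Protein sequences and the qPCR data were not used here. The values of 5 members are not reported here, although the counts and medians of the groups include them.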

Additional observations from a re-analysis of the deposited data

Results flagged for a closer look

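In 3 members the sexes changed unequally after CCI, with an adjusted p below 0.05 for the interaction term of edgeR's quasi-likelihood test. The study had listed all of them for this difference, so the test is not independent of their choice. Kcns3, a silent potassium channel subunit, was at 79.1 and 84.2 CPM in naïve males, 107 and 104 CPM in CCI males, 115 and 103 CPM in naïve females and 82.7 and 86.7 CPM in CCI females. Its interaction (change in females minus change in males) was -0.73 on the log2 scale, from a change of -0.37 in females and 0.37 in males. With 1 library left out, it passed in 2 of 8 fits, and the value stayed negative in all 8.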

How the results depend on the processing

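The 11 calls in the average were the same with DESeq2, DESeq2's size factors, no filter, at least 10 counts in every library, voom with library weights, the replicate block and the version 4 fit of edgeR. Upper-quartile normalization added Kcnk5, and an additive model lost Trpc5. Without the log2FC threshold 28 members and 6969 genes were called, and with 1 library left out 10 to 15 members and 2009 to 2755 genes. Of the 6 genes of the naïve lists, 2 (Chrne and Trpm2) were called between CCI females and CCI males with DESeq2, without a filter, with at least 10 counts in every library and in a fit over all 8 libraries, 0 with the replicate block, and 0 to 2 with 1 library left out. There the log2FC of Trpc6 ranged from -0.89 to 0.30 and that of Cacna1g from -0.62 to 0.34, each positive without CCI female 2. In females 7 members passed without the log2FC threshold, and 1 to 6 with 1 library left out. In males 0 to 25 passed with 1 library left out. For the interaction, DESeq2 passed 31 members (and 1618 of all genes), no filter 19 (1032), at least 10 counts in every library 10 (532), the replicate block 5 (314), against 3 (270) as reported, and leaving out 1 library 0 to 8. Between naïve females and naïve males, DESeq2 called 10 members (and 996 of all genes), no filter 5 (262) and the fit over all 8 libraries 9 (906), against 0 (12) as reported, while 0 were called with any 1 library left out. The causes were not tested. The replicate numbers were not used as pairs, since the correlation of the differences between replicates was 0.73 for the naïve and CCI males but -0.02 to 0.14 for the other pairs of groups. In the counts' headers the first replicates of both male groups, and no other libraries, carry a trailing letter a. In males the block added 2 members (Gabra4 and Cacna1g), and it changed no call in the average or for Trpa1. Other scalings moved the median of all genes by less than 0.03. With 2 rats a group, small changes could be missed, most of all in genes of few counts such as Cacna1g and Trpc5.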

Other observations

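Among the marker genes read beside the members, the nociceptor peptides Calca and Tac1, the only 2 of 5 nociceptor markers with a symbol, were called higher in the average (median log2FC 0.66), with a median of 0.98 in males and 0.33 in females. Cd74, the only leukocyte marker with a symbol, had an average log2FC of 0.31 and was not called. The study's lists supplied all of these symbols.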
